A study of Mus musculus with 24 samples.

Results

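The genes Ccl2, Ccl7, Ccl8, Ccl11 and Ccl20 encode 5 secreted CC chemokines, and their RNA was followed here in sorted mouse colon fibroblasts. They were chosen by symbol, as the 5 of 30827 named genes on the array whose probe set was annotated to exactly 1 of these symbols. Each had 1 probe set, so no choice between probe sets was needed. No measured value entered this rule, but the members were chosen with earlier results of these data known.

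CC chemokines are small proteins that carry a pair of adjacent cysteines and draw leukocytes along a gradient through G protein-coupled receptors of the CCR family. Stromal cells of the gut secrete them, and much of what they secrete is held on the sugar chains of proteoglycans, while atypical receptors take chemokine up without signalling. Ccl2 and Ccl7 call inflammatory monocytes through Ccr2, Ccl8 acts on monocytes and, in the mouse, on T cells through Ccr8, Ccl11 (eotaxin) calls eosinophils through Ccr3, and Ccl20 calls Ccr6-bearing lymphocytes and dendritic cells and is known mainly as a product of the epithelium. Transcription of several of them is switched on by NF-kB after interleukin-1 or TNF, and some respond to interferons or to the type 2 cytokines.

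RNA was measured on 24 Affymetrix Mouse Transcriptome Array 1.0 arrays, each hybridised with RNA of colon cells sorted as negative for Epcam, CD45 and CD31 and positive for gp38 (podoplanin). All mice carried Villincre-ERT2-ZsGreen, a Cre recombinase that can be induced, driven by the Villin promoter, with a fluorescent reporter. The promoter is active in intestinal epithelium, so the deletions concern the epithelium and the fibroblasts are read as its neighbours. The WT group (IhhWT and ApcWT) had 7 arrays, the ApcKO group (IhhWT and ApcKO) had 8, and the IhhKO_ApcKO group, deleted for both genes, had 9. Apc is the brake on Wnt signalling that is lost in most colon adenomas, and Ihh (Indian hedgehog) is the Hedgehog ligand that the colon epithelium sends to the stroma. The labels used here give no age, sex or schedule of induction. They also do not say that each array came from its own mouse, so p-values measure only the spread between these samples. Arrays are named here by group and by the letter and digit of their sample code. The letter was A on all WT arrays and on ApcKO A9, B on the other ApcKO arrays and on IhhKO_ApcKO B9, and C on the rest, so letter and genotype can hardly be told apart.

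Levels are the deposited RMA values in log2 units, where a difference of 1 is a doubling, and differences come from limma fitted to all 24 arrays and 30827 genes. The threshold for calling a gene was 0.05 for the p adjusted by Benjamini-Hochberg over all genes of a contrast. The number of arrays limits the precision. The sorted cells carried the fibroblast markers on all arrays: the mean of 11 measured markers lay between 10.31 and 10.73, and Pdpn, the gene for the sorted antigen gp38, had group means from 10.83 to 10.92. Ptprc, which encodes the sorted-out antigen CD45, lay at 2.96 over the 24 arrays, under the highest array median of the antigenomic background probes (3.15). Of 12 leukocyte markers 10 lay above the median of the 5222 negative control probe sets (4.60), with array means from 4.91 to 5.53. The 16 epithelial markers all lay above that median, and their array means spread widely, from 5.65 to 8.37. Genes of the other sorted-out antigens also lay above it. Epcam had group means from 5.98 to 6.89, and Pecam1, which encodes CD31, from 5.67 to 5.77. In bulk RNA of a sorted population, fewer cells of a type and less RNA per cell cannot be told apart.

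Ccl2, Ccl7, Ccl8 and Ccl11 lay above the negative control median and are called expressed here, while Ccl20 was not above background. Averaged over the 24 arrays, Ccl11 was brighter than 98.7% of the negative control probe sets, Ccl2 than 98.3%, Ccl7 than 96.1% and Ccl8 than 92.1%. Ccl8, at 7.58, lay under their 95th percentile (8.09), which 3 of the 5 members exceeded. Its highest values were 7.73 in ApcKO and 7.96 in IhhKO_ApcKO, so only WT arrays exceeded that line. Ccl20, at 4.24, was brighter than only 42.7% of the negative controls, although it lay above the antigenomic medians. No member passed the test in any of the 3 contrasts. The widest gap was that of Ccl8, which was 1.81-fold lower on average in ApcKO than in WT (adjusted p = 0.97 by limma). The next was also of Ccl8, 1.52-fold lower on average in IhhKO_ApcKO than in WT (adjusted p = 0.51). After Ccl8 came Ccl7, 1.34-fold higher on average in IhhKO_ApcKO than in ApcKO (adjusted p = 0.83).

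**Figure D1:**
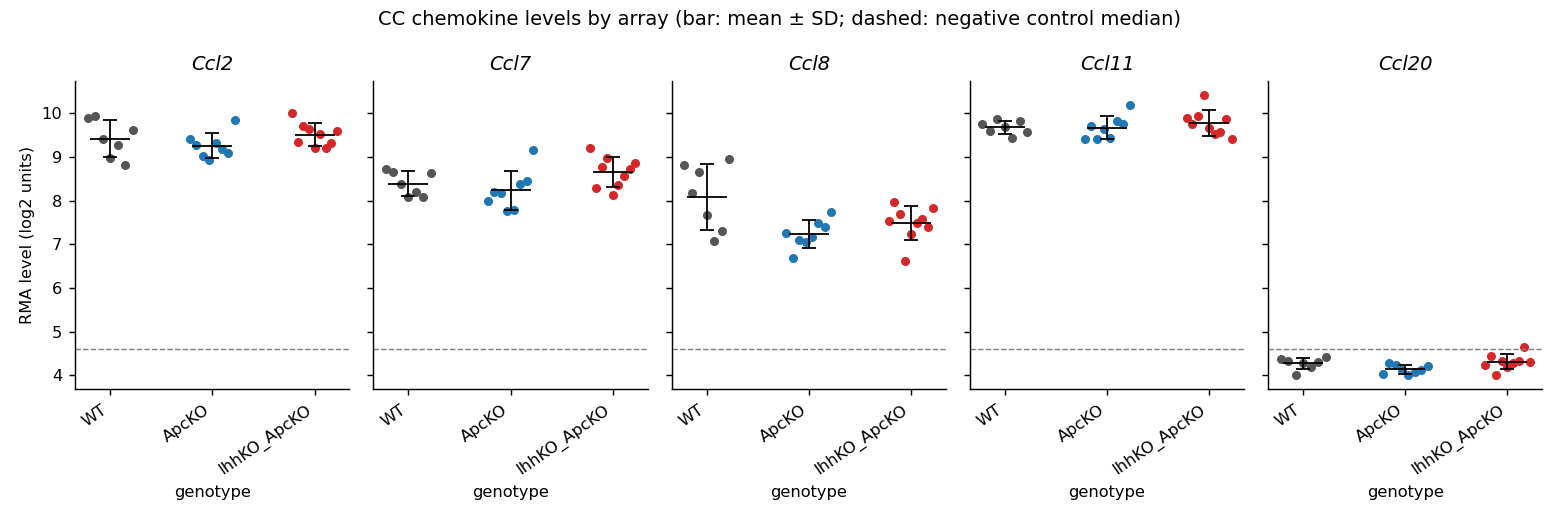
RMA level (log2 units, y axis) of each of the 5 chemokines on each array by genotype (x axis; 7 WT, 8 ApcKO and 9 IhhKO_ApcKO arrays). Points are arrays, bars are the mean ± SD, and the dashed line is the median of the negative control probe sets (4.60). The groups overlap for every gene, 4 WT arrays stand above all others for Ccl8, and Ccl20 lies around or under the dashed line.

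The monocyte attractants Ccl2 and Ccl7 had similar means in the 3 groups against the spread of single arrays. On the 7 WT arrays Ccl2 ran from 8.82 (A6) over a median of 9.42 to 9.93 (A2), with a mean of 9.42 ± 0.43 (SD, n = 7). On the 8 ApcKO arrays it ran from 8.92 (B3) over 9.22 to 9.84 (B8), with a mean of 9.25 ± 0.29 (SD, n = 8). On the 9 IhhKO_ApcKO arrays it ran from 9.20 (C4) over 9.53 to 10.01 (B9), with a mean of 9.51 ± 0.27 (SD, n = 9). The WT arrays thus spanned nearly the whole range seen in the other groups. By mean the order was IhhKO_ApcKO, WT, ApcKO, and neither step in it exceeded the spread: the difference was 0.09 log2 units (SE 0.15) between IhhKO_ApcKO and WT and -0.17 (SE 0.16) between ApcKO and WT.

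Ccl7, the neighbour of Ccl2 on chromosome 11, ran in WT from 8.08 (A6) over a median of 8.37 to 8.72 (A1), mean 8.39 ± 0.28 (SD, n = 7). In ApcKO it ran from 7.76 (B3) over 8.19 to 9.16 (B8), mean 8.24 ± 0.45 (SD, n = 8). In IhhKO_ApcKO it ran from 8.12 (C4) over 8.73 to 9.21 (B9), mean 8.66 ± 0.35 (SD, n = 9). ApcKO B8 stood above all other ApcKO arrays and above all but 1 of the IhhKO_ApcKO arrays, and 3 ApcKO arrays lay below every IhhKO_ApcKO array. The order of means was again IhhKO_ApcKO, WT, ApcKO, with overlap between all groups.

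Ccl8 had the largest scatter of the 5 members. Its SD within groups, pooled over the 24 arrays, was 0.51, larger than that of 98.6% of all genes, beside 0.37 for Ccl7, 0.33 for Ccl2, 0.26 for Ccl11 and 0.14 for Ccl20. The SD was largest in WT, where Ccl8 ran from 7.07 (A5) over 8.17 to 8.95 (A8), mean 8.09 ± 0.76 (SD, n = 7). In ApcKO it ran from 6.69 (B1) over 7.21 to 7.73 (B8), mean 7.23 ± 0.31 (SD, n = 8). In IhhKO_ApcKO it ran from 6.61 (C3) over 7.54 to 7.96 (C1), mean 7.48 ± 0.39 (SD, n = 9). The WT arrays A1 (8.81), A2 (8.17), A3 (8.65) and A8 (8.95) lay above every array of the other 2 groups, and A4 (7.67), A5 (7.07) and A6 (7.29) lay within their range. A difference in spread between the groups was not tested.

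Ccl11 had the smallest pooled SD of the 4 expressed members, though 90.3% of all genes had a smaller one. Within IhhKO_ApcKO the SD of Ccl2 was smaller than that of Ccl11. In WT it ran from 9.43 (A5) over 9.69 to 9.87 (A3), mean 9.68 ± 0.16 (SD, n = 7). In ApcKO it ran from 9.41 (B2) over 9.67 to 10.20 (B8), mean 9.67 ± 0.27 (SD, n = 8). In IhhKO_ApcKO it ran from 9.41 (C9) over 9.76 to 10.42 (C3), mean 9.78 ± 0.30 (SD, n = 9). The 3 ranges nested in each other, and single arrays, C3 and B8, set the upper ends.

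For Ccl20 the mean was 4.13 ± 0.10 (SD, n = 8) on the ApcKO arrays, 4.27 ± 0.14 (SD, n = 7) on the WT arrays and 4.31 ± 0.18 (SD, n = 9) on the IhhKO_ApcKO arrays. Its highest value was 4.65 on IhhKO_ApcKO C7, the only array on which it exceeded the negative control median. Differences in Ccl20 therefore concern a signal at background, and no level of expression is read from it.

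The promoter windows are shown for Ccl8, the member whose level varied most, and for Ccl20, the member at background, since RefSeq entries of the table used here (GRCm38.p6) matched these 2 of the 5 genes. Each line runs 5′ to 3′ from 250 bases before to 50 bases after the start of the gene, on the + strand. The Ccl8 window is chr11:82114935-82115234 and the Ccl20 window is chr1:83116516-83116815. Capitals mark the only matches to the 5 motifs reported here, searched on both strands: the core promoter letters TATAAA in Ccl8, and overlapping matches to the NF-kB motif, GGG and CC with any 5 bases between, in Ccl20.
Ccl8: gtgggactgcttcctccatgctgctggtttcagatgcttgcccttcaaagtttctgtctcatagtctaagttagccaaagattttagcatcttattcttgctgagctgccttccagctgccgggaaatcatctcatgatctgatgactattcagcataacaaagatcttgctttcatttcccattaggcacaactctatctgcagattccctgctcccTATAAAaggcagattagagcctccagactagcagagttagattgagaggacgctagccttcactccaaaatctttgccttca
Ccl20: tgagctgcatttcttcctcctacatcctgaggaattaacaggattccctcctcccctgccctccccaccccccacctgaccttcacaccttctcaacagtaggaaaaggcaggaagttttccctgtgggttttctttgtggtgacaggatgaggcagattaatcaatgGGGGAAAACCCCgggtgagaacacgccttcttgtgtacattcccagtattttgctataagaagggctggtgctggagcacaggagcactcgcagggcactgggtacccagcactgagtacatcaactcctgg
The TATAAA match of Ccl8 lay at -32 to -27, counted from the first base of the gene, and 13.6% of the 32851 promoters of the same length held 1. The run of NF-kB matches in Ccl20, on both strands, lay at -82 to -71. This motif is common: 50.8% of all promoters held it. The others were TGANTCA (AP-1, in 7.81% of promoters), the interferon-stimulated response element (TTTC, any 2 bases, TTTC, in 3.44%) and the STAT6 motif (TTC, any 4 bases, GAA, in 6.95%). None of these 3 motifs occurred in either window, nor the NF-kB motif in that of Ccl8 or TATAAA in that of Ccl20. A match is a run of letters and not a measured binding site. Ccl2, Ccl7 and Ccl11 had no entry.

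The contrast of ApcKO with WT asked how fibroblasts beside an Apc-deficient epithelium differ from those beside an intact one. All 5 members had a lower mean in ApcKO, Ccl11 by only -0.01 with a sign that turned under median centring, and 0 of 5 passed, where 0.0% of the 30827 genes were called. At an unadjusted p under 0.05 limma had 1 of the 5 members, Ccl8, and 4.41% of all genes. The median difference over the members was -0.15 log2 units, beside -0.02 over all genes, of which 39.4% had a positive difference. Ccl8 differed by -0.85 (SE 0.24, 95% interval -1.35 to -0.36), or between 1.28-fold and 2.55-fold lower. All 8 ApcKO arrays lay below the WT mean of Ccl8, and 4 of 7 WT arrays lay above all ApcKO arrays. Its unadjusted p of 0.0015 was the 32nd smallest of the contrast, and the adjusted p was 0.97.

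The Ccl8 difference kept its sign whichever array was left out. It ran from -1.02 without WT A5 to -0.71 without WT A8, and no omission brought the adjusted p under 0.56. Epithelial markers averaged higher in ApcKO (7.45 ± 0.74, SD, n = 8) than in WT (6.92 ± 0.72, SD, n = 7), with array ranges of 6.32 to 8.30 and 5.97 to 7.98. With their mean on each array as a covariate the Ccl8 difference was -0.88. With the code letter as a block it was -0.83 (SE 0.52). That fit sets the single array ApcKO A9 against the WT arrays, so it cannot separate letter from genotype. Markers of monocytes and macrophages, cells that themselves make CC chemokines, had array means of 5.85 to 6.04 in WT and 5.79 to 6.13 in ApcKO. Of the 12 markers in that list 7 had a positive and 5 a negative difference, with a median of 0.02. The smallest p in it was that of Ly6c2, at -0.32 (SE 0.08, adjusted p = 0.97), with means of 11.58 in WT and 11.26 in ApcKO. Ly6c2 is known as a monocyte antigen, but its level was near that of the fibroblast marker Vim (11.66 in WT, 11.62 in ApcKO). Of the 12 markers 9 lay above the negative control median, among them Cd68 with group means from 9.07 to 9.15. Adgre1, a surface antigen of macrophages, had group means from 4.25 to 4.31, under that median. Which cells gave the Ly6c2 signal was not tested. The part of macrophage RNA in the Ccl8 difference was not tested.

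The other members gave narrower intervals around smaller differences in ApcKO against WT. Ccl2 differed by -0.17 (95% interval -0.49 to 0.16, adjusted p = 0.97), with 7 of 8 ApcKO arrays below the WT mean. Ccl7 differed by -0.15 (95% interval -0.52 to 0.21, adjusted p = 0.97), with 5 of 8 below. Ccl11 differed by -0.01 (95% interval -0.26 to 0.25, adjusted p = 1.00), with 4 of 8 on each side, and by 0.02 when each array was centred on its median. With the code letter as a block Ccl11 differed by -0.27 (SE 0.26), so this interval holds only for the fit without the letter. Ccl20 differed by -0.14 (95% interval -0.29 to 0.02, adjusted p = 0.97) at its background level. The letter block also moved Ccl2 to -0.01 (SE 0.31), Ccl7 to -0.40 (SE 0.35) and Ccl20 to -0.23 (SE 0.16). These letter block values, that of Ccl11 included, also rest on ApcKO A9 alone against the WT arrays.

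The contrast of IhhKO_ApcKO with ApcKO asked what the additional loss of epithelial Ihh changes. All 5 members had a higher mean in IhhKO_ApcKO, and 0 of 5 passed, where 0.0454% of all genes were called. At an unadjusted p under 0.05 limma had 2 of the 5 members, Ccl7 and Ccl20, and 4.94% of all genes. The median difference was 0.25 over the members and 0.01 over all genes, of which 56.6% were positive. This contrast shares the ApcKO arrays with the one before it, so the turn of sign between them is not a separate observation.

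Ccl7 was higher by 0.42 log2 units on average in IhhKO_ApcKO (SE 0.17, 95% interval 0.08 to 0.77, 1.06-fold to 1.70-fold). Of the 9 IhhKO_ApcKO arrays 8 lay above the ApcKO mean, and only B9 lay above all ApcKO arrays. The unadjusted p was 0.018 and the adjusted p 0.83. ApcKO B8 weighed on it: without that array the difference was 0.56, with the smallest adjusted p of any member under any alternative, 0.22. With the letter in the model, which sets IhhKO_ApcKO B9 against the ApcKO arrays of letter B, the difference was 0.94 (SE 0.35, adjusted p = 0.42). Macrophage markers had array means in these groups from 5.79 to 6.13 and from 5.85 to 6.31. Their r with Ccl7, described below, was 0.59 over the 24 arrays (adjusted permutation p = 0.12). With the mean of the leukocyte markers, a different list, as a covariate the Ccl7 difference was 0.35. The part of macrophage RNA was not tested.

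Ccl2 was higher by 0.26 (95% interval -0.05 to 0.56, adjusted p = 1.00), with 7 of 9 arrays above the ApcKO mean. Ccl8 was higher by 0.25 (95% interval -0.21 to 0.71, adjusted p = 1.00), with 8 of 9 above, C3 being the exception. Ccl11 differed by 0.11 (95% interval -0.13 to 0.35, adjusted p = 1.00), with 5 of 9 above, and by 0.03 without C3. None of these 3 intervals excluded 0. With the letter in the model the Ccl2 difference was 0.78 (SE 0.31), the Ccl11 difference 0.19 (SE 0.26) and the Ccl20 difference 0.091 (SE 0.16). These values rest on IhhKO_ApcKO B9 alone against the ApcKO arrays of letter B. Ccl20 was higher by 0.17 (SE 0.07, 95% interval 0.03 to 0.32, adjusted p = 0.84), and 6 of 9 arrays lay above all ApcKO arrays, all but 1 of them still under the negative control median. Epithelial markers, given here because Ccl20 is known from epithelium, averaged 7.15 ± 0.87 (SD, n = 9) in IhhKO_ApcKO and 7.45 ± 0.74 (SD, n = 8) in ApcKO. Of the 16 epithelial markers 15 had a negative difference in this contrast. With their mean on each array as a covariate the Ccl20 difference was 0.20 (SE 0.07, adjusted p = 0.52 by limma). How much epithelial RNA gave to the Ccl20 signal was not tested.

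**Figure D2:**
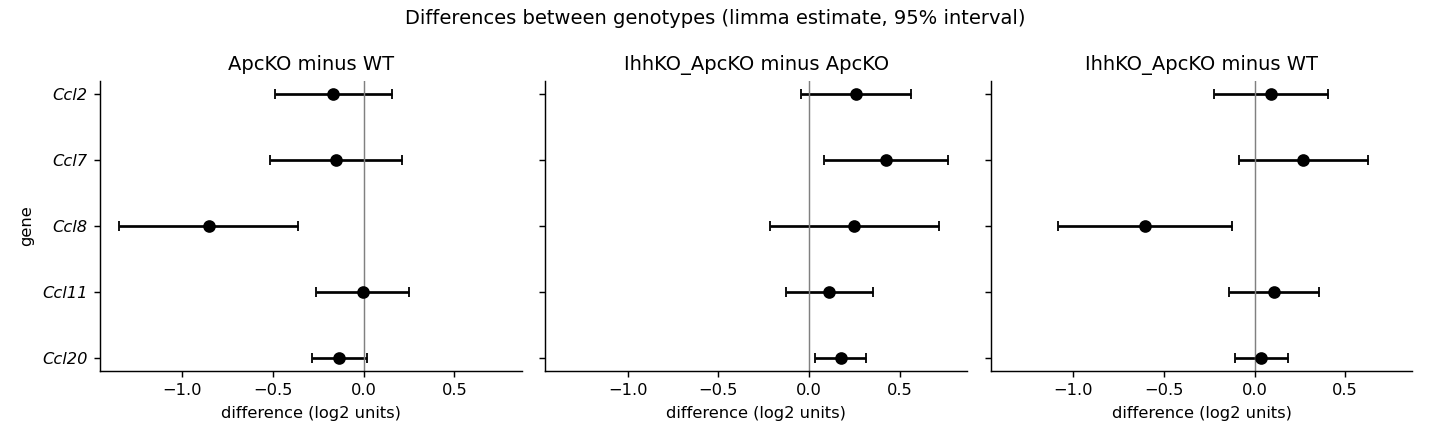
Difference between genotypes in log2 units (x axis) for each chemokine (y axis) in the 3 contrasts, as the limma estimate with its 95% interval over 7 WT, 8 ApcKO and 9 IhhKO_ApcKO arrays. Intervals left of 0 are those of Ccl8 against WT (-0.85 for ApcKO and -0.60 for IhhKO_ApcKO), intervals right of 0 are those of Ccl7 (0.42) and Ccl20 (0.17) between the deleted groups, and no adjusted p was under 0.05.

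The contrast of IhhKO_ApcKO with WT compared loss of both genes with intact mice and shares its arrays with the other contrasts. Of the 5 members 4 had a higher mean in IhhKO_ApcKO and 1, Ccl8, a lower one, and 0 of 5 passed, where 0.0811% of all genes were called. At an unadjusted p under 0.05 limma had Ccl8 alone, and 7.62% of all genes. The median difference was 0.09 over the members and -0.01 over all genes. Ccl8 differed by -0.60 (SE 0.23, 95% interval -1.09 to -0.12, adjusted p = 0.51), and 9 of 9 arrays lay below the WT mean. It was -0.77 without WT A5 and -0.46 without WT A8. With the code letter as a block it was -0.52 (SE 0.73), a value that rests on ApcKO A9 and IhhKO_ApcKO B9. The same 4 high WT arrays thus set Ccl8 apart from both deleted groups.

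Ccl7 differed from WT by 0.27 (95% interval -0.09 to 0.62, adjusted p = 0.78), with 5 of 9 arrays above all WT arrays. Ccl2 differed by 0.09 (95% interval -0.22 to 0.41, adjusted p = 0.93). Ccl11 differed by 0.11 (95% interval -0.14 to 0.35, adjusted p = 0.89). Ccl20 differed by 0.04 (95% interval -0.11 to 0.19, adjusted p = 0.94). With the letter in the model the differences were 0.77 (SE 0.44) for Ccl2, 0.54 (SE 0.50) for Ccl7, -0.08 (SE 0.36) for Ccl11 and -0.14 (SE 0.22) for Ccl20. They too rest on ApcKO A9 and IhhKO_ApcKO B9. The sign of Ccl2 also turned without WT A6.

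Ccl2 and Ccl7 varied together from array to array within a genotype. After the group mean was taken from each value, Pearson's r over the 24 arrays was 0.74 (permutation p = 5e-05, adjusted 0.003 over 60 relations) and Spearman's rho was 0.74 (permutation p = 0.00011, adjusted 0.0066). The 60 relations were the 10 between members and those of each member with the array means of 10 cell type marker lists. Without WT A6 and ApcKO B8, the arrays farthest out in Ccl2, r was 0.68. It was 0.96 within WT, 0.66 within ApcKO and 0.80 within IhhKO_ApcKO, and 0.86, 0.79 and 0.67 among arrays of letter A, B and C. WT A6 was the lowest WT array in both genes, ApcKO B3 the lowest and B8 the highest of ApcKO, and C4 the lowest and B9 the highest of IhhKO_ApcKO. It was the only one of the 60 relations with an adjusted permutation p under 0.05.

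The other pairs were looser. Ccl7 and Ccl11 had r = 0.55 (rho 0.42, adjusted permutation p = 0.23), which was 0.38 without ApcKO B8 and IhhKO_ApcKO B9. Within groups it was 0.86 in ApcKO, 0.45 in IhhKO_ApcKO and -0.10 in WT. Ccl8 followed Ccl7 within WT (r = 0.82) and within ApcKO (0.69) and not within IhhKO_ApcKO (-0.20), with 0.38 over all arrays (rho 0.48, adjusted permutation p = 0.36). Ccl8 and Ccl2 had r = 0.48 (rho 0.50, adjusted permutation p = 0.36) over all arrays and -0.04 within IhhKO_ApcKO. Whether these values differ between genotypes was not tested. Ccl20 had no r beyond 0.19 in size with any other member.

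**Figure D3:**
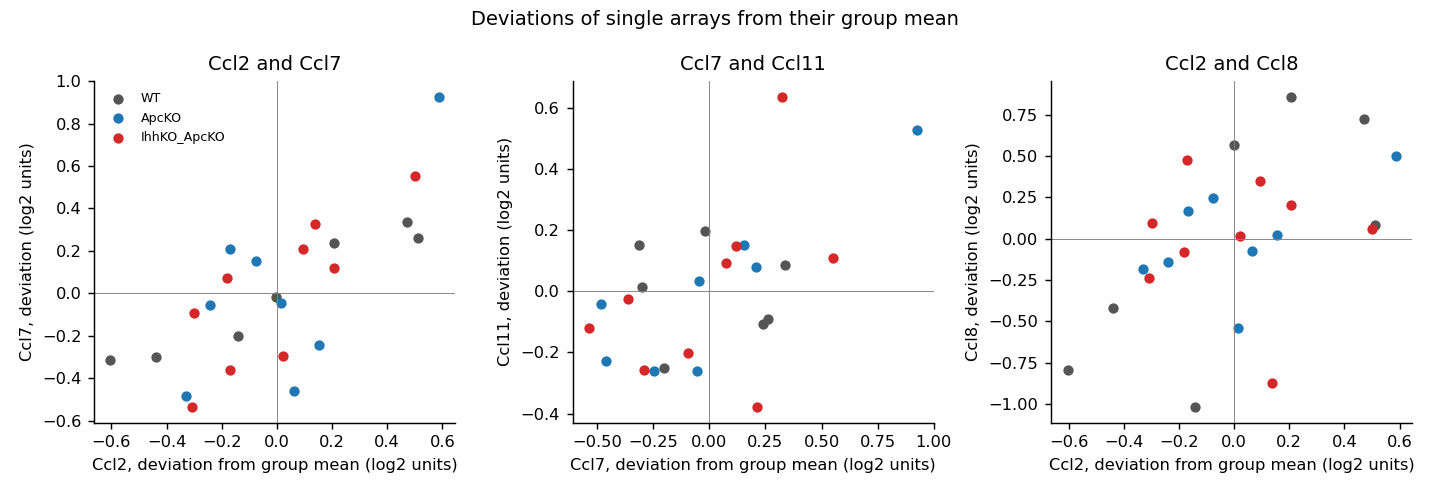
Deviation of single arrays from their group mean (log2 units on both axes) for Ccl2 with Ccl7, Ccl7 with Ccl11 and Ccl2 with Ccl8, coloured by genotype (7 WT, 8 ApcKO and 9 IhhKO_ApcKO arrays). Ccl2 and Ccl7 line up along the diagonal (r = 0.74), and the other pairs (r = 0.55 and 0.48) rest more on a few outlying arrays.

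Over all arrays the marker list closest to Ccl7 was that of monocytes and macrophages, with r = 0.59 (permutation p = 0.0041, adjusted 0.12, rho 0.48). It was 0.37 without ApcKO B8 and IhhKO_ApcKO B9, the arrays farthest out in those markers, and 0.38, 0.83 and 0.50 within WT, ApcKO and IhhKO_ApcKO. Mesothelium markers had r = 0.44 with Ccl7 (rho 0.43, adjusted permutation p = 0.31), and 0.48 without WT A4 and IhhKO_ApcKO B9. The arrays left out differed between the lists, so 0.37 and 0.48 cannot be ranked against each other. With Ccl2, r was 0.42 for blood endothelium markers (adjusted permutation p = 0.36) and 0.41 for macrophage markers (adjusted permutation p = 0.31). Leukocyte markers had r = 0.37 with Ccl7 (adjusted permutation p = 0.36), and epithelial markers had r = 0.41 with Ccl20 (adjusted permutation p = 0.36). Of 12 macrophage markers 9 lay above the negative control median.

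The genes whose deviations were most like each member's are given as a description, ranked by Pearson's r over the 24 arrays among protein-coding genes brighter than the median gene (11480 for each expressed member). For Ccl2 they were the neutrophil chemokine Cxcl1 (0.79), Ccsap (0.75), Ccl7 (0.74), the haem-regulated repressor Bach1 (0.74) and Tmem88 (0.73). For Ccl7 they were the pentraxin Ptx3 (0.82), interleukin-6, Il6 (0.80), the metallothioneins Mt2 (0.78) and Mt1 (0.76), and Gch1 (0.78), which makes the first step of tetrahydrobiopterin synthesis. Ccl2 was the 9th gene on the list of Ccl7. All 5 of the genes nearest to Ccl7 had r at or above 0.59 within each genotype. These are the arrays that ranked the genes, so the values are not separate support.

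For Ccl8 the nearest were the proteasome activator subunit Psme1 (0.77), Gm4951 (0.77), the immunoproteasome subunit Psmb9 (0.75), the lysosomal autophagy regulator Dram1 (0.72) and the guanylate-binding protein Gbp2 (0.72). Psme1, Psmb9 and Gbp2 are known as genes induced by interferon gamma. For Ccl11 they were the small GTPase Rab20 (0.80), the interferon-inducible Ifi207 (0.79), Susd6 (0.79), the NF-kB restraining protein Tnip1 (0.78) and the AP-1 subunit Fosl2 (0.77), of which Tnip1 and Fosl2 had only 0.29 and 0.33 within WT. For Ccl20, at background, the first 3 were Pip5k1b (0.72), Celsr1 (0.70) and Ivd (0.67). None of these 25 genes passed in any contrast.

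**Figure D4:**
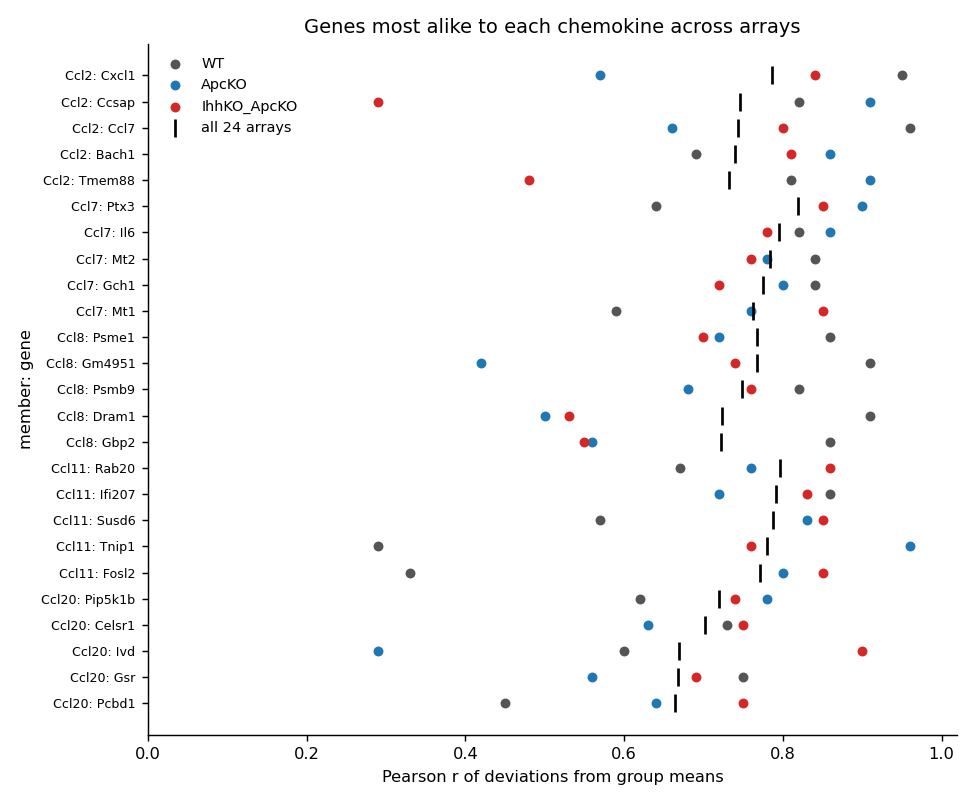
Pearson's r (x axis) between the deviations of each chemokine and those of its 5 most alike genes (y axis, as member: gene). The black bar is r over the 24 arrays, which ranked the genes, and points are r within 7 WT, 8 ApcKO and 9 IhhKO_ApcKO arrays. The points rest on the same arrays that ranked the genes. Those of Ccl7 lie high in all 3 genotypes, and Tnip1 and Fosl2 of Ccl11 are low in WT.

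In the RefSeq order of coding genes 4 members lie side by side on chromosome 11 in the run Ccl2, Ccl7, Ccl11, Ccl12, Ccl8, Ccl1, and Ccl20 lies alone on chromosome 1 between Krtap28-13 and Daw1. Ccl12, a Ccr2 ligand between Ccl11 and Ccl8, had means of 3.23 in WT, 3.23 in ApcKO and 3.13 in IhhKO_ApcKO, about the highest antigenomic median (3.15). A single array, ApcKO B2, had Ccl12 at 4.29. Ccl1, at the far end of the run, had means from 4.59 to 4.65, at the negative control median. The probe sequences were not used here, so shared signal between these related genes was not tested.

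Of the 15 other CC chemokines measured 12 lay above the negative control median and 0 passed in any contrast, with 1 at an unadjusted p under 0.05 in ApcKO minus WT and 0 in the others. In the order of the contrasts above, that is ApcKO against WT, IhhKO_ApcKO against ApcKO and then IhhKO_ApcKO against WT, the median differences were -0.04, 0.04 and 0.02. The smallest p in ApcKO minus WT belonged to Ccl25, the thymus and small intestine chemokine that acts through Ccr9, at 0.24 (SE 0.08, adjusted p = 0.97), followed by Ccl28, an epithelial chemokine for antibody-secreting cells, at 0.39 (SE 0.22, adjusted p = 0.97). Ccl6 had 0.39 in IhhKO_ApcKO minus WT (SE 0.23, adjusted p = 0.73).

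**Figure D5:**
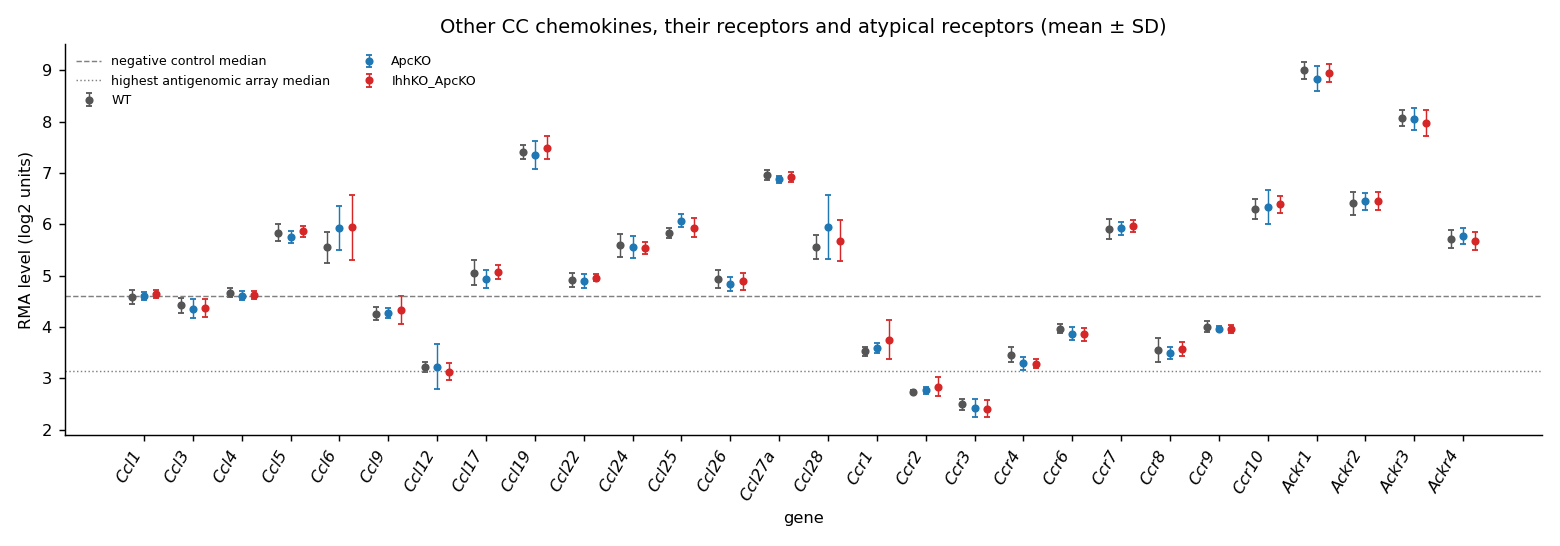
Mean RMA level (log2 units, y axis) ± SD over 7 WT, 8 ApcKO and 9 IhhKO_ApcKO arrays for the 15 other CC chemokines, 9 CC receptors and 4 atypical receptors measured (x axis). The dashed line is the negative control median (4.60) and the dotted line the highest array median of the antigenomic background probes (3.15). The groups lie on top of each other for nearly all genes, and Ccr2 and Ccr3 lie under both lines.

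The receptors of the members were at background in the sorted cells. Of 9 CC receptors measured only Ccr7 and Ccr10 exceeded the negative control median. Ccr2, the receptor for Ccl2 and Ccl7, had means of 2.75, 2.77 and 2.84 in WT, ApcKO and IhhKO_ApcKO, and Ccr3, the eotaxin receptor, had 2.49, 2.43 and 2.41. Ccr8 lay from 3.49 to 3.58 and Ccr6, the receptor of Ccl20, from 3.86 to 3.97 in the group means. No receptor passed in any contrast (1, 0 and 1 of 9 at an unadjusted p under 0.05). All 4 atypical receptors exceeded the negative control median. Ackr1, a scavenger of many inflammatory chemokines, had means of 8.997, 8.83 and 8.95, and Ackr3 had 8.07, 8.05 and 7.98. None of the 4 passed, and 0 had an unadjusted p under 0.05 in any contrast.

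Genes of pathways upstream of the members, both signalling parts and genes that the pathways induce, were counted from lists, and none passed in any contrast. Of 18 measured NF-kB, interleukin-1 and TNF pathway genes, 10 had a positive difference in ApcKO minus WT, 16 in IhhKO_ApcKO minus ApcKO and 16 in IhhKO_ApcKO minus WT, with medians of 0.01, 0.08 and 0.09 (0, 0 and 2 at an unadjusted p under 0.05). Among them were the interleukin-1 receptor Il1r1 at 0.27 (SE 0.15) and the NF-kB inhibitor Tnfaip3 (A20) at 0.26 (SE 0.14) in IhhKO_ApcKO minus ApcKO, both with an adjusted p of 1.00. In IhhKO_ApcKO minus WT the subunit Relb had 0.13 (SE 0.06, adjusted p = 0.57). Of all genes 39.4% were positive in ApcKO minus WT, 56.6% in IhhKO_ApcKO minus ApcKO and 44.9% in IhhKO_ApcKO minus WT. At an unadjusted p under 0.05 limma had 4.41%, 4.94% and 7.62% of all genes. These shares also stand beside the list counts below. Any 2 of the contrasts share 1 group of arrays, so their counts are not separate observations.

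Of 14 measured interferon pathway genes, 12 had a negative difference in ApcKO minus WT (median -0.15) and 12 a positive one in IhhKO_ApcKO minus ApcKO (median 0.15), with 3 and 6 at an unadjusted p under 0.05. Both contrasts share the ApcKO arrays, so the turn of sign between them is not a separate observation. Of all genes 39.4% and 56.6% were positive in these contrasts, and 4.41% and 4.94% had an unadjusted p under 0.05. In IhhKO_ApcKO minus WT 8 were positive (median 0.01, 1 at an unadjusted p under 0.05). Gbp3, a guanylate-binding protein, averaged 7.13 ± 0.15 (SD, n = 8) on the ApcKO arrays, 7.55 ± 0.21 (SD, n = 7) on the WT arrays and 7.47 ± 0.31 (SD, n = 9) on the IhhKO_ApcKO arrays, with an adjusted p of 0.97 for ApcKO minus WT and 0.54 for IhhKO_ApcKO minus ApcKO. Oas2, an antiviral enzyme, had 0.58 in IhhKO_ApcKO minus ApcKO (SE 0.19, adjusted p = 0.52). Beside the list's median of 0.01 in IhhKO_ApcKO minus WT, Ccl8 had -0.60, and Ccl8 was not tested against the list.

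The type 2 cytokine pathway acts upstream of Ccl11 and Ccl8 in many tissues. Of its 10 listed genes 3 were positive in ApcKO minus WT, 7 in IhhKO_ApcKO minus ApcKO and 4 in IhhKO_ApcKO minus WT. The medians were -0.07, 0.04 and -0.03 (3, 2 and 4 at an unadjusted p under 0.05). The receptor chain Il13ra1 had 0.43 in IhhKO_ApcKO minus WT (SE 0.13, adjusted p = 0.29) and 0.27 in IhhKO_ApcKO minus ApcKO (SE 0.13, adjusted p = 0.97). Its partner Il4ra had 0.32 in IhhKO_ApcKO minus ApcKO (SE 0.15, adjusted p = 0.98). The decoy receptor Il13ra2 was lower on average in both deleted groups: it had -1.45 in ApcKO minus WT (SE 0.34, adjusted p = 0.97) and -1.05 in IhhKO_ApcKO minus WT (SE 0.33, adjusted p = 0.32), contrasts that share the WT arrays.

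Of 10 CXC chemokines measured, 8 were negative in ApcKO minus WT (median -0.15) and 8 positive in IhhKO_ApcKO minus ApcKO (median 0.15). Both contrasts share the ApcKO arrays, so this turn of sign is again not a separate observation. In IhhKO_ApcKO minus WT 5 were positive (median -0.01). In the order of the contrasts, 3, 2 and 1 had an unadjusted p under 0.05, and 0 passed. Cxcl9, a T cell attractant induced by interferon gamma, averaged 6.87 ± 0.59 (SD, n = 8) on the ApcKO arrays against 7.53 ± 0.67 (SD, n = 7) on the WT arrays, a difference of -0.66 (SE 0.27, adjusted p = 0.97). Cxcl14 had 0.36 in IhhKO_ApcKO minus WT (SE 0.12, adjusted p = 0.36).

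Genes that restrain inflammatory RNAs and proteins that hold chemokines outside the cell showed small differences, and none passed. Of 8 restraining genes 7, 4 and 6 were positive in the 3 contrasts in the order above, with medians of 0.08, 0.01 and 0.06 (0, 2 and 1 at an unadjusted p under 0.05). The phosphatase Dusp1 had 0.14 in IhhKO_ApcKO minus WT (SE 0.05, adjusted p = 0.47), and the glucocorticoid receptor Nr3c1 had -0.15 in IhhKO_ApcKO minus ApcKO (SE 0.06, adjusted p = 0.79). Of 11 proteoglycans 4, 4 and 3 were positive, with medians of -0.01, -0.04 and -0.03 (0, 2 and 3 at an unadjusted p under 0.05). The syndecans Sdc1 and Sdc4 had 0.16 (SE 0.06, adjusted p = 0.62) and 0.20 (SE 0.08, adjusted p = 0.87) in IhhKO_ApcKO minus ApcKO.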

How the data were processed

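Per the labels, total RNA of sorted colon fibroblasts was amplified with a 3' IVT pico kit and hybridised to 24 arrays. The authors deposited log2 values from RMA, per the submitters' processing notes; RMA corrects background, normalises quantiles between arrays and summarises probes, so a shift common to all genes of an array is removed. Its software version is not given in the sources used here, nor is the build of the array annotation. Of 72688 probe sets in the table, 6732 controls were left out, and 31388 of the 65956 transcript clusters had 1 gene name. The brightest probe set stood for each of the 423 genes with several, giving 30827 genes, with no filter on dim genes. Differences were fitted with limma 3.58.1 in R 4.3.3 (lmFit, eBayes without trend, not robust, group as the only term) on all 24 arrays. Permutation p-values of relations used 100000 resamples within groups (scipy 1.17.1, numpy 2.4.6, pandas 2.3.3, Python 3.11.15), and are two-sided. Scripts were tested on simulated data. Replicate codes differ between groups, so nothing pairs arrays.

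The members, the lists and the tests were chosen with earlier results of these data known. Named genes were the members, at most the 2 smallest p-values of each list and contrast, the 5 genes most alike to each member, and marker genes where a result turned on them. Genes named otherwise (Ccl12, Ccl1 and the receptors of the members) were added for their role. Lists covered other CC chemokines, their receptors, atypical receptors, NF-kB, type 2, interferon, CXC chemokine, restraint and proteoglycan genes, and markers of fibroblasts, epithelium, leukocytes, macrophages, eosinophils, blood and lymphatic endothelium, pericytes, glia and mesothelium. No list was tested as a set. Alternatives were median centring, the upper genes by mean, trend and robust variance, array weights, the 2 groups alone, the code letter as a block, all probe sets, marker means as covariates, and leaving out each array. Promoter sequences are from RefSeq, GRCm38.p6. A further motif that was searched is not reported here.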

Additional observations from a re-analysis of the deposited data

How the results depend on the processing

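No member passed under any of the alternatives run, and in 358 of 372 member differences recomputed the direction stayed; the smallest adjusted p was 0.22, for Ccl7 in IhhKO_ApcKO minus ApcKO without ApcKO B8. The other 14 turned sign. In ApcKO minus WT Ccl11 (-0.01) was 0.0188 after median centring, 0.03 with epithelial markers as a covariate, and -0.081 to 0.0317 when single arrays were left out. In IhhKO_ApcKO minus WT, with the code letter as a block, Ccl11 was -0.0802 and Ccl20 -0.143, and Ccl2 moved without turning from 0.09 to 0.767. When single arrays were left out there, Ccl20 ran from -0.00557 to 0.0763 and Ccl2 from -0.0105 to 0.175. The cause was not tested.

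The letter block compares single arrays (ApcKO A9 among letter A, IhhKO_ApcKO B9 among letter B) with the rest. Under it the differences in IhhKO_ApcKO minus ApcKO were 0.779 for Ccl2 and 0.94 for Ccl7 (adjusted p = 0.49 and 0.42).

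Genes called over the whole table moved by more than 1.5 times from 0, 14 and 25. ApcKO minus WT called 113 with the letter block. IhhKO_ApcKO minus ApcKO called 8 with median centring, 23 among the upper genes, 65 with array weights, 53 with the letter block and 8 to 41 without single arrays. IhhKO_ApcKO minus WT called 16 with median centring, 7 with the 2 groups alone, 45 with array weights, 84 with the letter block and 12 to 67 without single arrays. The largest counts without single arrays, 41 and 67, were without IhhKO_ApcKO B9. Ccl20 lay under the filter on upper genes and had no value there. Each member had 1 probe set, so a second one could not be tried. No paired analysis was possible because the groups share no replicate codes. Signal limits Ccl20, which lay at background.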

Other observations

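Of the 15 sets of member values by genotype, 0 held an array standing apart by Dixon's test at its 95% critical value. Eosinophil markers, of interest beside Ccl11, lay on both sides of the negative control median (4.60). In the order WT, ApcKO and IhhKO_ApcKO, Prg2 had means of 5.62, 5.57 and 5.50, Epx 5.13, 5.07 and 5.04, Siglecf 4.45, 4.44 and 4.46, and Il5ra 3.29, 3.18 and 3.27. The deviations of Ccl11 and of these markers had r = 0.23 and rho = 0.21 over 24 arrays (adjusted permutation p = 0.63).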
